A study of Rattus norvegicus with 24 samples.

Results

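The comparison asked how the response of striatal neurons to a D1 dopamine receptor agonist at 24 h differed from the response at 60 min. It was the SKF effect at 24 h (SKF minus DMSO in experiment 3) minus the SKF effect at 60 min (SKF minus DMSO in experiment 1), on log2 gene expression, and it drew on 8 of the 23 libraries analysed. All were primary neurons of the neonatal rat striatum kept for 7 days in culture, and RNA was sequenced after removal of ribosomal RNA. The 4 groups were vehicle alone (DMSO in place of both agents) for 60 min, SKF with DMSO for 60 min, vehicle alone for 24 h, and SKF with DMSO for 24 h, each with 2 libraries, numbered 5 and 6. SKF is named in the series as a D1 receptor agonist, with no dose given. The series also holds arms with the bromodomain inhibitors JQ1 and iBD2, of which the JQ1 arms serve here as a repeat of the comparison. Each time point was a separate experiment, so time and experiment cannot be told apart. The labels do not say whether the 2 libraries of a group are separate cultures. The p-values therefore measure the spread between libraries, and that spread may be technical.

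D1 receptors couple to the stimulatory G proteins Gs and Golf, which raise cyclic AMP and activate protein kinase A. The kinase phosphorylates the transcription factor CREB, which binds the cyclic AMP response element, and together with MAP kinase signalling it switches on immediate early genes within minutes, without new protein synthesis. Many of these genes encode transcription factors (Fos, Jun, Egr and Nr4a families) or inhibitors of the same pathways (MAP kinase phosphatases, Sik1, the repressor form of Crem), and their transcripts decay quickly once signalling stops. Secreted and synaptic products of the later wave, such as Vgf, can last longer.

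The libraries held 7.00 to 14.9 gigabases of aligned sequence. Striatal identity was checked against its markers: Gad1, which makes GABA, ranged from 363 to 421 FPKM (the authors' expression unit, normalised for transcript length and sequencing depth and here scaled between libraries) over the 8 libraries, the dopamine signalling protein gene Ppp1r1b from 67.8 to 81.5 and Drd1 from 11.1 to 17.8. Markers of glia were present too, with summed levels of 992 to 1311 FPKM for 20 astrocyte genes and 60.8 to 159 FPKM for 19 microglia genes. The 17 endothelial and mural genes summed to only 5.29 to 8.68 FPKM. Mitochondrially encoded genes took 8.05 to 9.79% of aligned bases.

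Of the 221 genes that SKF raised at 60 min, 111 had a smaller effect at 24 h by the test of the difference and were not called there. A separate set of 62 was called at 24 h and in the difference but not at 60 min. The first set included 18 immediate early genes, such as Nr4a2 and Fos. Of the 28 rising genes of the second, 9 were in the hypoxia and glycolysis list, and of its 34 falling genes 5 were in the microglia list. A gene was called where the Benjamini-Hochberg adjusted p was below 0.05 in limma's moderated test over 13999 genes. The difference was called lower, meaning a smaller or more negative SKF effect at 24 h, for 148 genes (1.06% of those tested) and higher for 33 (0.236%). At an unadjusted p below 0.05 the counts were 789 lower and 421 higher, and the median difference over all genes was −0.005. Of the called genes, 37 were lower and 4 higher by at least 1 log2 unit. In all 181, the 4 SKF minus DMSO differences at 24 h (each SKF library against each DMSO library) lay wholly to one side of the 4 at 60 min, as did 10.4% (below) and 8.46% (above) of all genes. With the spread estimated from the 8 libraries alone, with 4 residual degrees of freedom in place of 11, 36 genes were lower and 5 higher, all 41 of them among the 181. Of the called genes named below, 20 were among the 41 (Nr4a2, Btg2, Tiparp, Junb, Rgs1, Dusp1, Klf4, Crem, Cwc25, Nptx1, Sik1, Fosl2, Cebpb, Ppp1r15a, Vegfa, Tfrc, Pfkl, Fcgr3a, Pld4 and Cx3cr1) and the others lost their call in that fit. With the 60 min effect taken from experiment 2 the counts were 237 and 60. The lower count dropped to 94 without DMSO 60 min replicate 5 and to 91 without SKF 24 h replicate 6. The higher count was 20 and 14 without those libraries, and 22 without either DMSO 24 h library.

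Each gene was placed in a class by its calls in the single effects and in their difference. At 60 min SKF was called to raise 221 genes (1.58%) and to lower 19 (0.136%), and at 24 h it was called to raise 89 (0.636%) and to lower 120 (0.857%). The class named back at baseline held 113 genes, called at 60 min, called in the difference and not called at 24 h, of which 111 had risen at 60 min. The name stands for these calls and does not show a full return to the vehicle level. The late-only class held 62 genes, called at 24 h and in the difference but not at 60 min, 28 of them raised and 34 lowered at 24 h. The name late-only likewise stands for calls and does not show an absence of change at 60 min. The sustained class held 9 genes, called in the same direction at both times. No gene was called in opposite directions at the 2 times by limma, while 33 had opposite effects at an unadjusted p below 0.05 for both times. The count of genes in opposite directions was 1 without DMSO 60 min replicate 6 and 2 with experiment 2 at 60 min. In a further 118 genes called at 60 min and 138 called at 24 h, the difference itself did not pass, so these were not shown to differ between the times.

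**Figure D1:**
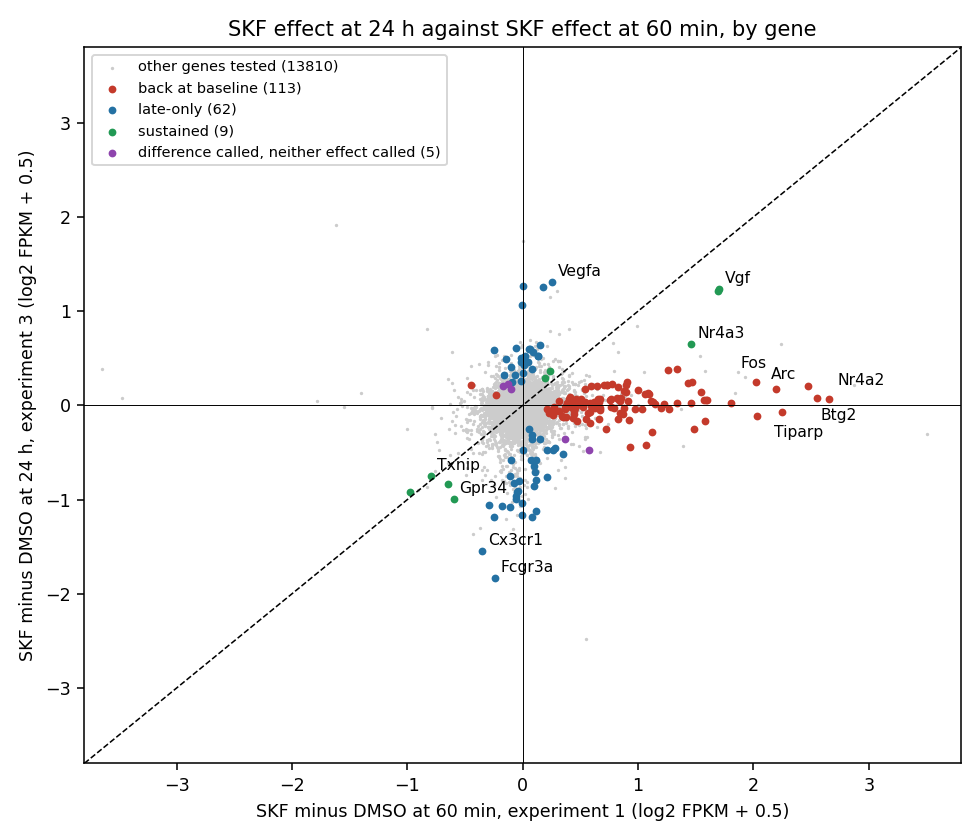
Each point is a gene, with the SKF effect at 60 min on the x axis and at 24 h on the y axis, both log2 (FPKM + 0.5), and equal effects on the dashed line. The 113 genes back at baseline lie along the horizontal zero line, the 62 late-only genes along the vertical one, and Vgf stands apart to the upper right.

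In the back-at-baseline class the median SKF effect was 0.732 log2 units at 60 min and 0.026 at 24 h, and the median difference was −0.691. The class was chosen by calls of these same effects, and the 60 min effect is part of the difference. Its medians and intervals are therefore a description and no test. For 102 of the 113 genes the 95% confidence interval of the 24 h effect lay within 0.5 log2 units of zero, so a larger remaining change was outside the interval for these. The rest were not bounded that tightly. In 21 of the 113 the unadjusted interval excluded zero, above it in 17 (Sik1, Per1 and Fosl2 among them) and below it in 4. At 24 h, 65 of the 113 effects were above zero and 48 below. The class shrank to 31 genes with the 8 libraries fitted alone and to 75 without SKF 24 h replicate 6.

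Several genes of the class encode transcription factors. Nr4a2, an orphan nuclear receptor needed by dopamine neurons (Rnor_6.0 chromosome 3, 43111240 to 43119159), was at 5.40 and 4.71 FPKM in the DMSO 60 min libraries and at 31 and 38.3 with SKF. At 24 h it was at 1.09 and 1 with DMSO and 1.15 and 1.09 with SKF. The SKF libraries were thus far above vehicle at 60 min and nearly level with it at 24 h, and the effect differed by −2.59 ± 0.15 log2 units (SE, adjusted p = 1.52e-08). Fos (chromosome 6, 109300433 to 109303299), an AP-1 subunit, was at 38.4 and 46.6 FPKM with DMSO and 140 and 216 with SKF at 60 min. At 24 h Fos was at 5.72 and 5.07 with DMSO and 6.63 and 6.34 with SKF, which did not overlap but lay close together, and its difference was −1.78 ± 0.25 (adjusted p = 0.00145). Other AP-1 genes differed by −2.26 ± 0.19 (Junb), −1.54 ± 0.26 (Fosl1) and −1.22 ± 0.14 (Fosl2). Klf4, a zinc finger factor, differed by −1.74 ± 0.20, and Cebpb, a bZIP factor, by −1.09 ± 0.14. None of these 7 calls was lost when any single library was left out, and that of Fosl1 was lost with limma's voom on reads estimated from coverage.

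Genes that restrain the pathway or cell growth were also in the class. Btg2 (chromosome 13, 50913180 to 50916982), an antiproliferative gene that promotes mRNA decay, was at 3.32 and 3.26 FPKM with DMSO and at 17.2 and 27.3 with SKF at 60 min, and at 2.92 and 2.58 against 3.18 and 2.68 at 24 h. The 24 h libraries overlapped, and the difference was −2.47 ± 0.21 (adjusted p = 3.93e-06). Sik1 (chromosome 20, 10668411 to 10680283), a salt-inducible kinase that holds back CREB coactivators, was at 15.6 and 16.2 FPKM with DMSO and at 44.9 and 49.6 with SKF at 60 min. At 24 h it was at 8.71 and 8.72 against 9.61 and 9.74, above vehicle in both libraries, with a 24 h effect of 0.14 that was not called (adjusted p = 0.282) and a difference of −1.40 ± 0.07 (adjusted p = 8.88e-09). Crem (chromosome 17, 57031766 to 57090888), whose inducible product ICER represses CREB targets, was at 5.77 and 5.25 FPKM with DMSO and 17.9 and 17.1 with SKF at 60 min, and at 4.40 and 3.77 against 4.50 and 4.04 at 24 h, a difference of −1.53 ± 0.12. The MAP kinase phosphatase Dusp1 differed by −1.78 ± 0.14, and its relatives Dusp5, Dusp14, Dusp10 and Dusp4 by −0.94, −0.87, −0.52 and −0.44. Rgs1, a regulator of G protein signalling, was at 0.112 and 0.153 FPKM with DMSO and at 2.37 and 1.82 with SKF at 60 min but at 0.0519 to 0.210 in the 4 libraries at 24 h, a difference of −2.14 ± 0.23. Only its SKF 60 min libraries were above the 0.5 FPKM of the filter, which is also the value added before log2. At such levels a 24 h effect near zero was largely set by the scale, so Rgs1 does not show a return. In all, 8 of 52 feedback genes tested had a lower difference and 0 a higher one (11 and 1 at an unadjusted p below 0.05), with a list median of −0.05, so most of the list was not called. The call of Dusp4 was lost without 6 of the 8 libraries in turn, the exceptions being SKF 60 min replicate 5 and DMSO 24 h replicate 5 (adjusted p up to 0.0936).

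Promoters of 300 bases (250 before the start to 50 after it, RefSeq, build GRCr8) were matched by symbol or synonym for 91 of the 113 back-at-baseline genes and for 10105 of the 13999 genes tested. The full cyclic AMP response element, TGACGTCA, which reads the same on both strands, was in 17 of the 91 (18.7%) and in 3.25% of all. Its shorter form TGACG, on either strand and contained in the full one, was in 52 (57.1%) against 32.4%, the AP-1 letters TGACTCA in 5 (5.49%) against 2.96%, and TATAAA in 14 (15.4%) against 6.51%. Median GC content was 64.3% in the class and 61.3% over all. These are counts of letters with no test, and they show neither binding nor cause. Only 72.2% of the genes tested had a promoter, under the 80% taken as the least for such a comparison, so the class is not read against them. The same holds for the other classes: the full element was in 2 of the 22 promoters found for 28 rising late-only genes, 0 of 21 for 34 falling ones and 2 of 6 for 9 sustained ones. Shown are 3 promoters of the class, Btg2 and Dusp1 with the full element and Sik1 with 2 short ones, and that of Vgf, which rose at both times, with every TGACG on either strand in capitals, so that the full element is a run of 8 capitals. They lie at chr13:48087641-48087940 (minus strand, Btg2), chr10:17184603-17184902 (plus strand, Dusp1), chr20:9958597-9958896 (minus strand, Sik1) and chr12:25276971-25277270 (minus strand, Vgf), each printed 5′ to 3′ along its gene.
Btg2: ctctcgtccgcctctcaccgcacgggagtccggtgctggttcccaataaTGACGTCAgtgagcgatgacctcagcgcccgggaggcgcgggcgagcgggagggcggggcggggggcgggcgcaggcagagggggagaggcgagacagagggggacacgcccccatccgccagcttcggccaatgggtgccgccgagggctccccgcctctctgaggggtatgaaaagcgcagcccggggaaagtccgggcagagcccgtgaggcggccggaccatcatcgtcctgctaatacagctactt
Dusp1: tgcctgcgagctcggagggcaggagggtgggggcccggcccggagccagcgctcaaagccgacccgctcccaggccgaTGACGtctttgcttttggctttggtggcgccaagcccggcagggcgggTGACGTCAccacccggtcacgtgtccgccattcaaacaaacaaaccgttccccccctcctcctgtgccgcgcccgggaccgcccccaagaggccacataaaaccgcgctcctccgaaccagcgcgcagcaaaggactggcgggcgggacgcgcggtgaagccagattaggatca
Sik1: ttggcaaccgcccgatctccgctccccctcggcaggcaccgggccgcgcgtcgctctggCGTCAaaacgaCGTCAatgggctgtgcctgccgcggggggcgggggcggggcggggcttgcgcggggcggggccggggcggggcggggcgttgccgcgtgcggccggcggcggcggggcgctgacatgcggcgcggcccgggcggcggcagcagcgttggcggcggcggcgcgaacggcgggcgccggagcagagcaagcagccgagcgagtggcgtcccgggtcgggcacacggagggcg
Vgf: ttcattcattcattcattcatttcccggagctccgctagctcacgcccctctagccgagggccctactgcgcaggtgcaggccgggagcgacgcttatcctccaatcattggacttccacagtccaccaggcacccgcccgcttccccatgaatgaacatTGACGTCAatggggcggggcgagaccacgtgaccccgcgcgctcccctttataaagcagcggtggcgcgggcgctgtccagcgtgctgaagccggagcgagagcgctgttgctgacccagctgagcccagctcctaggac
At 24 h Btg2, Dusp1 and Sik1 were not called and Vgf was, and the full element is in both Btg2 and Vgf, so in these 4 promoters the letters do not separate the 2 outcomes.

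Other genes with large differences had varied roles. Arc, an activity-regulated protein of excitatory synapses, was at 4.54 and 4.09 FPKM with DMSO and 15.1 and 30.7 with SKF at 60 min, and at 1.90 and 2.49 against 2.76 and 2.29 at 24 h. Its 24 h libraries overlapped and its difference was −2.03 ± 0.32 (adjusted p = 0.00453), a call lost with voom. Nptx1, a pentraxin that clusters AMPA receptors, differed by −1.43 ± 0.13. Tiparp, an ADP-ribosyltransferase, differed by −2.32 ± 0.12, Rasl11a, a small GTPase, by −1.74 ± 0.24, and the spliceosome gene Cwc25 by −1.52 ± 0.10. Prok2, which encodes a secreted peptide, was at 3.61 and 2.13 FPKM with DMSO, 6.60 and 6.15 with SKF at 60 min, and 3.64 and 3.55 against 2.16 and 3.04 at 24 h. In experiment 2 its 60 min effect was 0.655, not called (adjusted p = 0.174). With that experiment at 60 min its difference was −1.07, not called (adjusted p = 0.101). Its difference of −1.48 ± 0.30 was lost without 6 of the 8 libraries in turn, all but DMSO 60 min replicate 5 and SKF 24 h replicate 6 (adjusted p up to 0.0906).

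**Figure D2:**
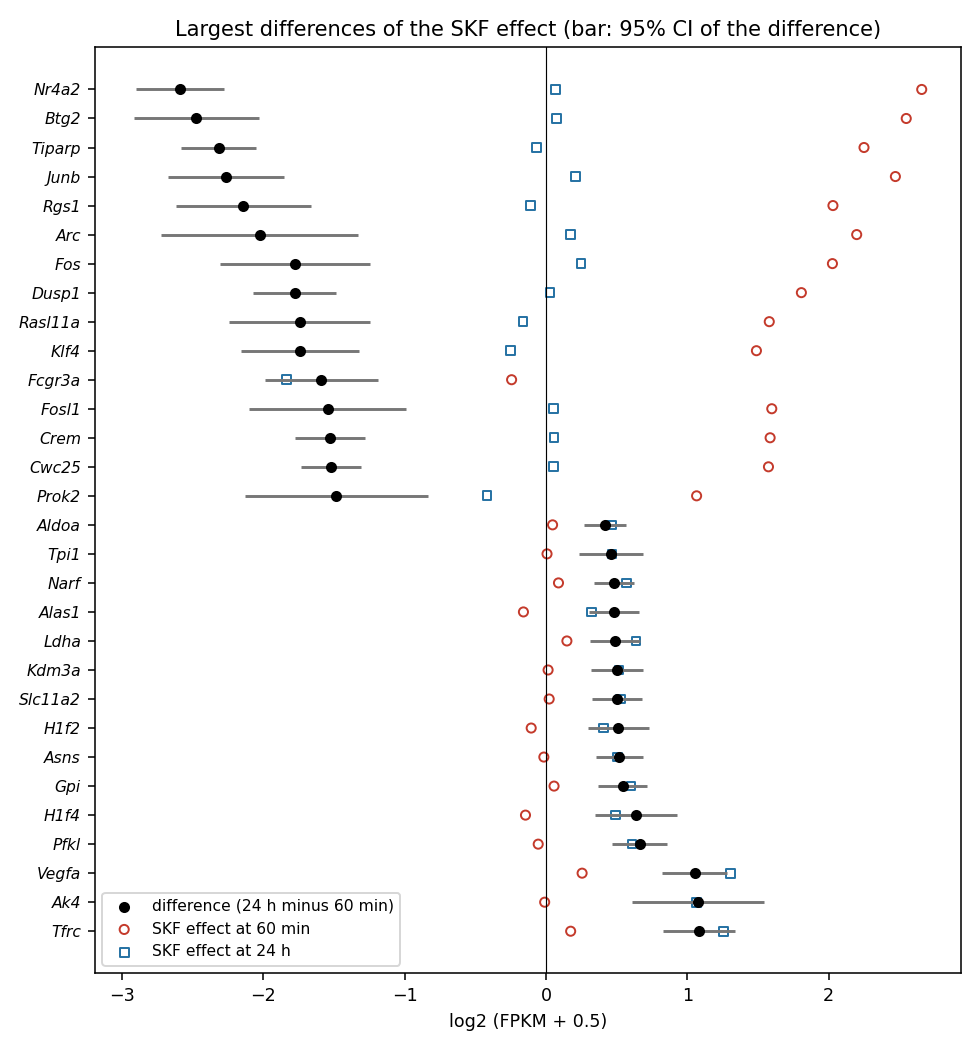
Black points are the difference of the SKF effects with its 95% confidence interval for the 15 largest negative and 15 largest positive named differences, and open symbols are the single effects, all in log2 (FPKM + 0.5). In 14 of the 15 negative ones the 60 min effect is above zero, while Fcgr3a has its effect at 24 h, and in the positive ones the difference sits near the 24 h effect.

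Of the 47 immediate early genes listed, 44 were tested. The difference was lower for 19 and higher for 0 (33 and 0 at an unadjusted p below 0.05), 40 of the 44 were below zero, and the median was −0.987 against −0.005 over all genes. At 60 min 31 of them were called up and at 24 h 1, Nr4a3. For 12 of the 31 the difference was not called. These included Egr1, Egr2, Egr4, Fosb, Npas4 and Nr4a1, all activity-regulated transcription factors, whose differences ran from −1.21 ± 0.34 (Egr1, adjusted p = 0.162) to −1.62 ± 0.38 (Egr4, adjusted p = 0.066). Their replicates stood apart at 60 min: Egr1 was at 44.7 and 49.9 FPKM with DMSO and at 90.2 and 182 in SKF replicates 5 and 6, and at 11.8 and 16 against 17.3 and 15.1 at 24 h. Nr4a1 was at 29.6 and 27.1 FPKM with DMSO and 105 and 175 with SKF at 60 min, then 2.25 and 1.90 against 4.22 and 2.96 at 24 h, a difference of −1.59 ± 0.35 (adjusted p = 0.0508). Without SKF 60 min replicate 5 all 6 passed the threshold, with adjusted p from 2.07e-07 (Egr4) to 0.00939 (Nr4a1), and 26 genes of the list were lower. That fit keeps only the higher SKF 60 min library and assumes that it varies like the other groups, so it does not show that these 6 genes differ. The same assumption holds wherever 1 library is left out. Egr2 and Egr4 were also called without SKF 60 min replicate 6, and Nr4a1 also without SKF 24 h replicate 5. The list had 10 lower genes with the 8 libraries fitted alone and 32 with the 60 min effect from experiment 2. Homer1, counted over all its transcripts, differed by −0.12 ± 0.06 (adjusted p = 0.668).

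Among 62 later activity and cAMP response genes tested, 15 had a lower difference and 0 a higher one (27 and 0 at an unadjusted p below 0.05), with a median of −0.217. Besides those above, the clock gene Per1 went from 32.5 and 35.4 FPKM to 57.1 and 70.6 with SKF at 60 min and was at 17.1 and 18.6 against 21.1 and 20.5 at 24 h, so that SKF was above vehicle at both times. Its difference was −0.68 ± 0.13 (adjusted p = 0.00904), and the call was lost without DMSO 60 min replicate 5, DMSO 24 h replicate 6 or SKF 24 h replicate 6 (adjusted p up to 0.0592). Scg2, which encodes a granin of secretory granules, differed by −0.31 ± 0.10 (adjusted p = 0.234), the pentraxin gene Nptx2 by −0.54 ± 0.13 (adjusted p = 0.058, and 0.00841 without SKF 24 h replicate 6) and the substance P precursor gene Tac1 by −0.63 ± 0.21 (adjusted p = 0.268). Bdnf, which encodes a neurotrophin, differed by −0.46 ± 0.25 (adjusted p = 0.668). None of these 4 was called.

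The receptor's own gene was raised at 60 min (0.48, adjusted p = 0.00725) and its difference did not pass. Drd1 was at 11.5 and 11.1 FPKM with DMSO and 14.4 and 17.8 with SKF at 60 min, with no overlap, and at 13 and 13.9 against 12.9 and 12.9 at 24 h. Its difference was −0.54 ± 0.13 (adjusted p = 0.0588, and 0.00941 without SKF 60 min replicate 5). Of 55 striatal projection neuron genes tested, the difference was lower for 1 and higher for 0 (11 lower at an unadjusted p below 0.05), namely the transcription factor gene Sp9 at −0.31 ± 0.07 (adjusted p = 0.042), whose call was lost without 6 of the 8 libraries in turn, all but DMSO 60 min replicate 5 and DMSO 24 h replicate 6 (adjusted p up to 0.204). Drd2 differed by 0.01 ± 0.11, Ppp1r1b by 0.06 ± 0.21, Pdyn by −0.12 ± 0.11 and Penk by 0.13 ± 0.27, none called (lowest adjusted p = 0.859).

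The vehicle levels with which these genes were compared were not the same in both experiments. The DMSO 24 h libraries had lower levels than the DMSO 60 min libraries for 97 of the 113 back-at-baseline genes, with a median of −0.187 log2 units, against 49.9% of all genes and a median of 0. Over the immediate early list the median was −0.332, and 13 of 44 genes (29.5%) were lower by at least 1 log2 unit, against 0.129% of all genes. Fosb, for example, was at 21 and 22.3 FPKM in the DMSO 60 min libraries and at 1.06 and 0.603 in the DMSO 24 h libraries. The comparison subtracts each experiment's own vehicle, and the part of these vehicle levels in the differences was not tested.

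**Figure D3:**
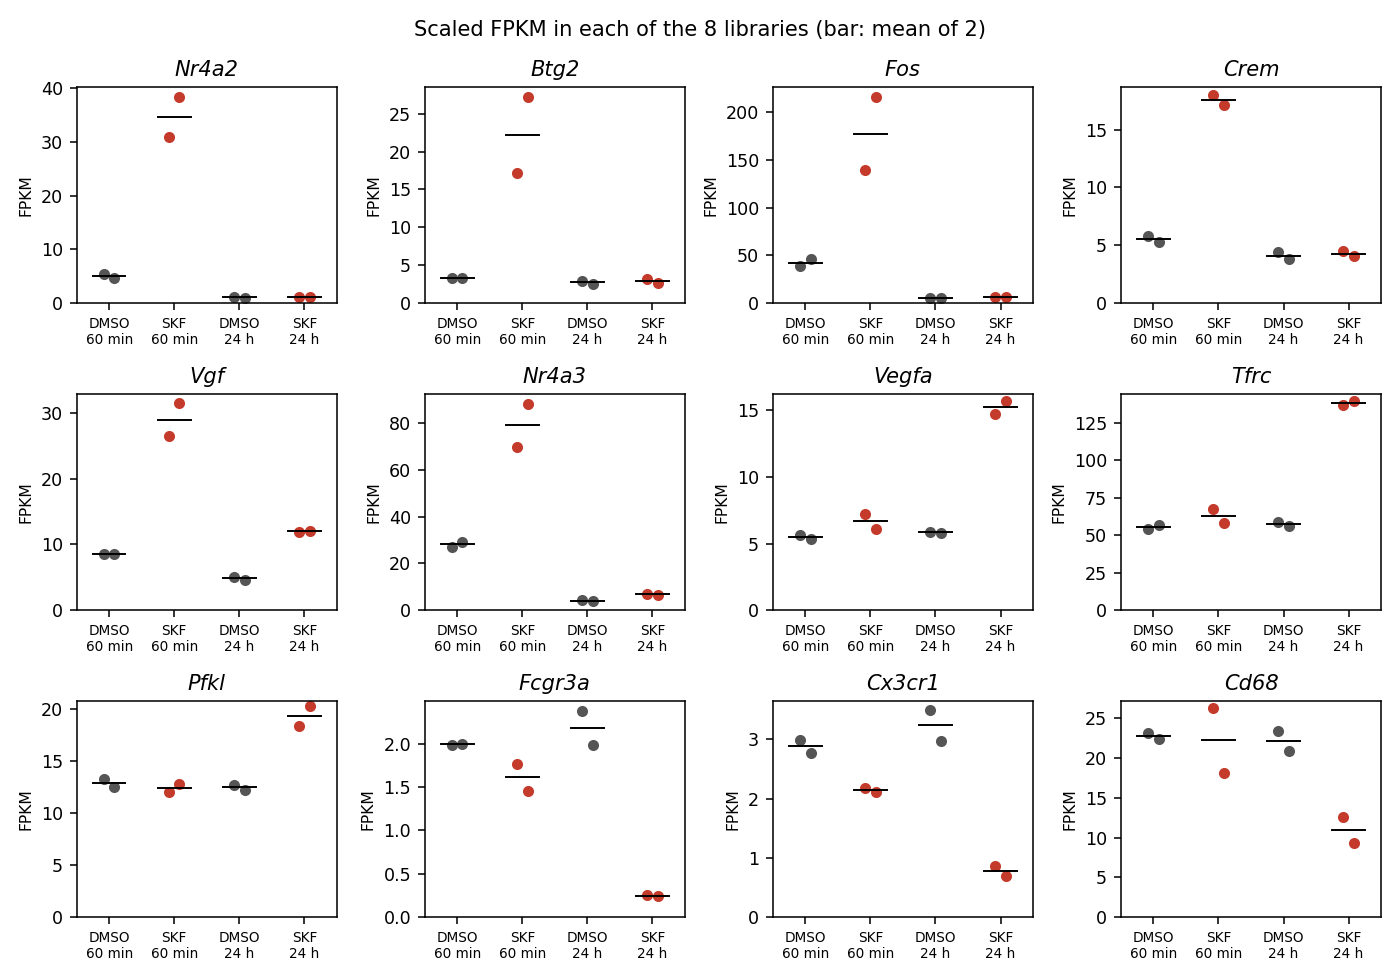
Scaled FPKM of 12 genes on linear axes from 0, with each point 1 of the 8 libraries (grey DMSO, red SKF) and each bar the mean of 2. The top row peaks at 60 min, Vgf and Nr4a3 are above vehicle at both times, Vegfa, Tfrc and Pfkl are higher with SKF at 24 h, and Fcgr3a, Cx3cr1 and Cd68 are lower there.

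The same values were read for genes chosen in other libraries. In experiment 2, the other 60 min experiment, SKF was called to raise 283 genes (2.02%). No library of experiment 2 enters the value of the difference. All 23 libraries share the estimate of the spread, so the calls of the difference are not independent of experiment 2. Of these 283, 274 had a difference below zero, 107 were called lower and 0 higher, and the median difference was −0.381. Their median effect at 24 h was 0.035, and for 256 the 95% confidence interval of the 24 h effect lay within 0.5 log2 units of zero. At 24 h 5 were called up, namely Vgf, Nr4a3, the glucose transporter gene Slc2a1, the stress gene Ddit4 and AABR07051069.1, and 1 was called down, Nell1 (−0.25), these being named after their values were seen. The 107 became 71 without DMSO 60 min replicate 5. Of the 113 back-at-baseline genes, 106 were also called up in experiment 2. Of the 42 genes that SKF was called to lower in experiment 2, the difference was called higher for 1 and lower for 0. Their median difference was 0.103.

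The 9 genes called in the same direction at both times fell into a rising and a falling set. Vgf (chromosome 12, 22677607 to 22680630), which encodes a neurotrophin-inducible granin cut into secreted peptides, was at 8.51 and 8.59 FPKM with DMSO and 26.5 and 31.5 with SKF at 60 min. At 24 h it was at 5.08 and 4.60 with DMSO and 12 and 12.1 with SKF, so that the SKF libraries were above vehicle at both times. Its effect was 1.70 at 60 min and 1.23 ± 0.13 at 24 h, and the difference, −0.47 ± 0.18, was not called (adjusted p = 0.401, 95% confidence interval −0.85 to −0.09). Nr4a3 (chromosome 5, 63781801 to 63821637), a nuclear receptor of the Nr4a family, was at 27.1 and 29.3 FPKM with DMSO and 69.9 and 88.1 with SKF at 60 min, and at 4.29 and 3.97 against 6.86 and 6.69 at 24 h. It was the 1 gene of the 9 whose difference was called (−0.81 ± 0.15, adjusted p = 0.00695), so its effect was smaller at 24 h but still above zero (0.65, adjusted p = 0.0021). Atf4, the main transcription factor of the integrated stress response, and Tp53inp2, an autophagy gene, rose at both times by under 0.5 log2 units, with differences of 0.13 and 0.10. AABR07051069.1, a gene model on an unplaced scaffold, had effects of 1.69 and 1.21, and whether it shares reads with Vgf was not tested.

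The falling set held Txnip, C3ar1, Gpr34 and Tifab. Txnip, whose product binds thioredoxin and restrains the uptake of glucose, was at 19.7 and 18 FPKM with DMSO and 12.5 and 9 with SKF at 60 min, and at 35.4 and 34.6 against 22.7 and 18.6 at 24 h. Both effects were near −0.8 and their difference was 0.04 ± 0.19 (adjusted p = 0.986), with a 95% confidence interval of −0.36 to 0.45. C3ar1, the receptor for complement C3a, was at 2.06 and 2.01 FPKM with DMSO and 0.841 and 0.734 with SKF at 60 min, and at 1.92 and 1.57 against 0.751 and 0.622 at 24 h, a difference of 0.06 ± 0.17. With experiment 2 at 60 min, where the effect on C3ar1 was −0.34 and not called (adjusted p = 0.21), the difference was −0.573 (adjusted p = 0.118), the opposite sign. Gpr34, a lysophosphatidylserine receptor of microglia, and Tifab had differences of −0.39 and −0.19, not called. The count of sustained genes was 4 with the 8 libraries fitted alone, 16 with voom, 5 without DMSO 60 min replicate 5 and 14 without SKF 60 min replicate 5. With experiment 2 at 60 min the count was 6, and the difference of Vgf was 0.150, the opposite sign. Of the 9 genes, 3 were called up at 60 min in experiment 2 (Vgf, Nr4a3 and AABR07051069.1) and 1 was called down (Txnip). Atf4, Tp53inp2, C3ar1, Gpr34 and Tifab were not called there.

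A separate set of genes was called at 24 h and not at 60 min, and the largest rising differences with a gene symbol were those of Tfrc, Ak4 and Vegfa. Vegfa (chromosome 9, 17340341 to 17355681), the vascular endothelial growth factor, was at 5.65 and 5.32 FPKM with DMSO and 7.22 and 6.11 with SKF at 60 min. At 24 h it was at 5.90 and 5.80 with DMSO and 14.7 and 15.7 with SKF, well apart, and the difference was 1.05 ± 0.11 (adjusted p = 3.13e-05). Vegfa was thus above vehicle in both SKF libraries at 60 min as well, where the effect was not called (0.256, adjusted p = 0.17). Tfrc (chromosome 11, 71397383 to 71419223), the transferrin receptor that takes up iron, was at 54.2 and 56.6 FPKM with DMSO and 67.4 and 58.1 with SKF at 60 min, and at 59.1 and 56 against 137 and 140 at 24 h, a difference of 1.08 ± 0.12 (adjusted p = 7.19e-05). The iron transporter Slc11a2 differed by 0.50 ± 0.08 and Alas1, the first enzyme of heme synthesis, by 0.48 ± 0.08. Ak4, a mitochondrial adenylate kinase, differed by 1.08 ± 0.22, a call lost without 5 of the 8 libraries in turn, all but DMSO 60 min replicate 6, SKF 60 min replicate 6 and DMSO 24 h replicate 6 (adjusted p up to 0.103).

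Of 36 hypoxia and glycolysis genes tested, the difference was higher for 9 and lower for 1 (19 and 2 at an unadjusted p below 0.05), with a median of 0.233, and at 24 h 19 were called up. Pfkl, the liver-type phosphofructokinase of glycolysis, was at 13.3 and 12.5 FPKM with DMSO, 12 and 12.8 with SKF at 60 min, and 12.7 and 12.2 against 18.4 and 20.3 at 24 h, a difference of 0.66 ± 0.09 (adjusted p = 0.000563). Ldha, lactate dehydrogenase, was at 84.6 and 79.3 FPKM with DMSO, 88.1 and 93.6 with SKF at 60 min, and 82.5 and 84.8 against 124 and 137 at 24 h, a difference of 0.49 ± 0.08. The glycolytic enzyme genes Gpi, Tpi1, Eno1, Aldoa and Pkm differed by 0.54, 0.46, 0.42, 0.42 and 0.30, and Kdm3a, a histone demethylase gene induced by low oxygen, by 0.50. The 1 lower gene was Mxi1, a Myc antagonist (−0.38 ± 0.05). The glucose transporter Slc2a1 and hexokinase Hk2 were called up at 24 h with differences of 0.15 and 0.63 that were not called (adjusted p = 0.832 and 0.0534), and Hk2 was called without SKF 24 h replicate 5. The list count was 2 with the 8 libraries fitted alone and 7 to 11 with 1 library left out. Tpi1 kept its call only without DMSO 60 min replicate 6, SKF 60 min replicate 6 or SKF 24 h replicate 5 (adjusted p up to 0.291), and Pkm lost it without DMSO 60 min replicate 5, SKF 60 min replicate 5, DMSO 24 h replicate 5 or SKF 24 h replicate 6 (adjusted p up to 0.156). The members were put together with this pattern already known, so the count is no independent evidence of its direction.

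Of 27 Atf4 and stress genes tested, the difference was higher for 2, Asns (0.52 ± 0.08), which makes asparagine, and the alanyl-tRNA synthetase gene Aars (0.27 ± 0.06), and lower for 2, Cebpb and Ppp1r15a (−0.96 ± 0.13), a phosphatase subunit that ends the stress response. At an unadjusted p below 0.05, 7 were higher and 4 lower, and the median was 0.138. At 24 h 9 of the 27 were called up, and for 6 of these the difference was not called. The call of Aars was lost without any of 7 of the 8 libraries, all but SKF 24 h replicate 5 (adjusted p up to 0.285). Of 42 histone genes tested, 2 linker histone genes were higher and 0 lower (5 and 2 at an unadjusted p below 0.05), H1f4 (0.64 ± 0.14) and H1f2 (0.51 ± 0.10). Their 60 min effects in experiment 1 were −0.145 (H1f4) and −0.10 (H1f2), not called, so part of each difference lay at 60 min. In experiment 2 H1f2 was called down at 60 min (−0.30, adjusted p = 0.0319), while H1f4 was not called (−0.35, adjusted p = 0.0716). H1f4 was not called without DMSO 60 min replicate 5, SKF 60 min replicate 6, DMSO 24 h replicate 6 or SKF 24 h replicate 6, nor H1f2 without DMSO 60 min replicate 5, DMSO 24 h replicate 6 or SKF 24 h replicate 6 (adjusted p up to 0.168).

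The falling late-only genes were led by genes of microglia, the macrophages of the brain, which are present in such cultures beside neurons. Fcgr3a (chromosome 13, 89385859 to 89396051), an Fc receptor for immunoglobulin G, was at 1.99 and 2 FPKM with DMSO and 1.77 and 1.46 with SKF at 60 min. At 24 h Fcgr3a was at 2.38 and 1.98 with DMSO and 0.253 and 0.247 with SKF, and the difference was −1.59 ± 0.19 (adjusted p = 0.000129). Cx3cr1 (chromosome 8, 128740756 to 128754514), the fractalkine receptor of microglia, was at 3 and 2.77 FPKM with DMSO, 2.18 and 2.12 with SKF at 60 min, and 3.5 and 2.97 against 0.858 and 0.700 at 24 h, a difference of −1.19 ± 0.20 (adjusted p = 0.00388). Cx3cr1 was thus below vehicle in both libraries at 60 min as well, where the effect was not called (−0.355, adjusted p = 0.453). Cd68, a lysosomal protein of phagocytes, was at 23.2 and 22.5 FPKM with DMSO, 26.3 and 18.2 with SKF at 60 min, and 23.4 and 20.9 against 12.6 and 9.37 at 24 h, a difference of −0.93 ± 0.21 (adjusted p = 0.0377). The integrin Itgam differed by −0.97 ± 0.18 and the adaptor Tyrobp by −0.91. Outside the list, the macrophage genes Pld4, Adgre1 and Cd4, the last carried by rat macrophages, and the Fc receptor-like gene Fcrl2 differed by −1.27, −1.16, −1.03 and −1.24, and were named by the size of their difference.

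Of 19 microglia genes tested, the difference was lower for 5 and higher for 0 (17 and 0 at an unadjusted p below 0.05), all 19 were below zero, and the median was −0.917. At 60 min 0 were called, and at 24 h 14 were called down. For 9 of those, Aif1 (−1.06, adjusted p = 0.232) and Trem2 (−0.93, adjusted p = 0.0551) among them, the difference was not called, though that of Trem2 was without SKF 60 min replicate 6, DMSO 24 h replicate 6 or SKF 24 h replicate 5. Tmem119, a marker of settled microglia, differed by −0.23 (adjusted p = 0.816). The summed level of the 19 genes was 146 and 133 FPKM with DMSO and 159 and 113 with SKF at 60 min, and 147 and 125 against 78.4 and 60.8 at 24 h. The SKF 24 h libraries were the lowest of the 8, and in a bulk sample fewer microglia and less of these RNAs per cell cannot be told apart. Other glial sums were also below vehicle at 24 h. For oligodendrocyte genes the SKF 24 h libraries, at 59.4 and 59.2 FPKM, were also the lowest of the 8, the others running from 60.6 to 70.5, and 12 of 15 genes tested were below zero with a median of −0.126 and 0 called (0 at an unadjusted p below 0.05). The astrocyte sum was 1311 and 1127 with DMSO against 1075 and 994 with SKF at 24 h, with no overlap, and 1085 and 1171 against 1295 and 992 at 60 min. The astrocyte list median was −0.241 and 18 of 19 genes were below zero, with 0 called and 1 lower at an unadjusted p below 0.05. The part of these other glia in the microglia result was not tested. The microglia count moved with the settings and with single libraries. It was 3 on FPKM as deposited, with a pseudocount of 0.1 or with no filter on low values, 8 with voom, 2 with the 8 libraries alone and 12 with experiment 2. It was also 3 without DMSO 60 min replicate 5, DMSO 60 min replicate 6, SKF 60 min replicate 5 or SKF 24 h replicate 6, and 2 without DMSO 24 h replicate 5. It was 9 without SKF 24 h replicate 5 and 11 without SKF 60 min replicate 6. Fcgr3a, Cx3cr1 and Pld4 kept their calls in all 8, Itgam lost its call without DMSO 24 h replicate 5 (adjusted p = 0.0512), Cd68, Tyrobp and Fcrl2 without 6 of the 8 (all but SKF 60 min replicate 6 and SKF 24 h replicate 5, adjusted p up to 0.244), and Adgre1 and Cd4 without SKF 60 min replicate 5, DMSO 24 h replicate 5 or SKF 24 h replicate 6, as well as DMSO 60 min replicate 5 for Adgre1 and 6 for Cd4 (adjusted p up to 0.0923).

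The late-only class as a whole had a median 24 h effect of 0.51 in the 28 rising genes and −0.798 in the 34 falling ones, with median 60 min effects of 0.008 and 0.028. For 56 of the 62 the 95% confidence interval of the 60 min effect lay within 0.5 log2 units of zero. These medians and intervals follow in part from the calls that define the class, so they too are a description. The class held 10 genes with the 8 libraries alone, 97 with experiment 2, 33 without DMSO 60 min replicate 5, 34 without SKF 60 min replicate 5, 30 without DMSO 24 h replicate 5 and 24 without SKF 24 h replicate 6.

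Of the other lists, few held a called gene. The difference was lower for Arc and Nptx1 among 60 glutamate synapse genes, for the NF-kB subunit Rel (−1.08 ± 0.17) and its inhibitor Nfkbia (−0.51 ± 0.10) among 27 NF-kB and inflammatory genes, and for 1 gene each among 24 GABA genes (the receptor subunit Gabrg1, −0.51), 19 interneuron genes (Nxph1, −0.30), 40 cell cycle genes (the polymerase clamp gene Pcna, −0.34) and 32 matrix and fibroblast genes (the protease Adamts1, −0.92), with 0 higher in any of them. The call of Nfkbia held only without SKF 60 min replicate 6 or SKF 24 h replicate 5, that of Gabrg1 only without SKF 60 min replicate 6 or DMSO 24 h replicate 6, and those of Nxph1 and Pcna only without SKF 60 min replicate 5 (adjusted p up to 0.25). Those of Rel and Adamts1 held with each library left out. With experiment 2 at 60 min the difference of Gabrg1 was −0.42 and not called (adjusted p = 0.0777). In 12 of the 26 lists, 392 genes tested in all, 0 genes were called by limma (13 lower and 8 higher at an unadjusted p below 0.05). These were the astrocyte, oligodendrocyte, excitatory neuron, endothelial and mural, cholesterol synthesis, heat shock, interferon response, ion channel, mitochondrially encoded, neuropeptide and secretory granule, respiratory chain and ribosomal protein lists, with medians from −0.241 (astrocyte) to 0.077 (cholesterol synthesis).

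**Figure D4:**
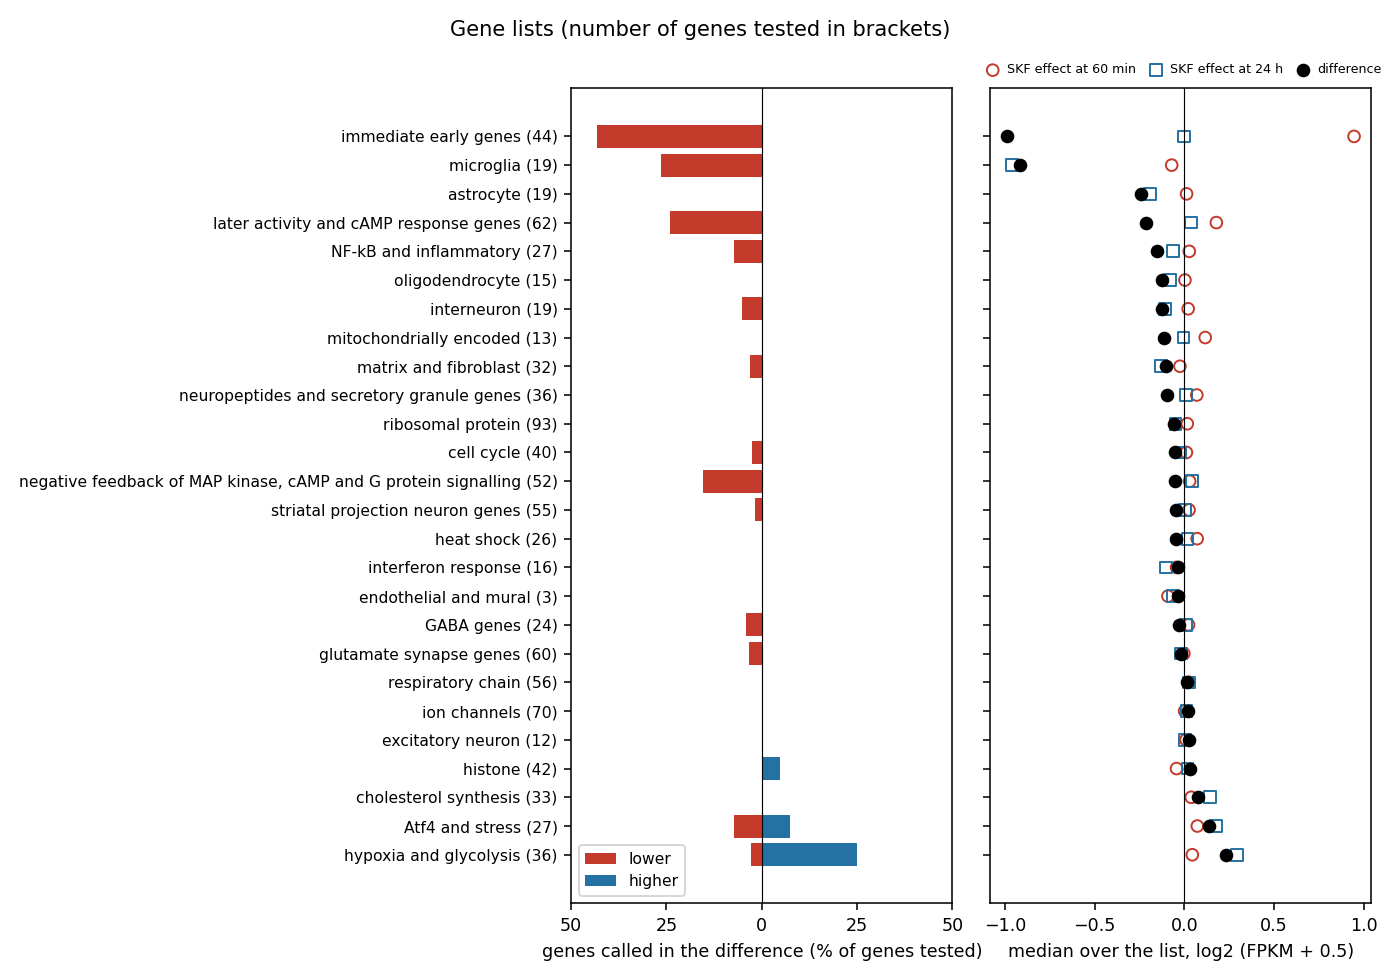
For each gene list, with its number of genes tested, the left bars give the percent of genes called lower (red) or higher (blue) in the difference, and the right points the list median of the difference and of both single effects in log2 (FPKM + 0.5). Immediate early genes (median −0.987) and microglia genes (−0.917) have the lowest medians, the first with its effect at 60 min and the second at 24 h, and hypoxia and glycolysis genes the highest (0.233).

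The comparison was repeated with JQ1, an inhibitor of BET bromodomain proteins, in both arms of both experiments, in 8 other libraries (SKF with JQ1 minus JQ1 alone at 24 h, minus the same at 60 min). The difference was then called lower for 107 genes (0.764%) and higher for 16 (0.114%). Of the 148 genes lower without JQ1, 143 had the same sign with it and 74 were called in both, which is 50% of the 148 and 69.2% of the 107. Of the 33 higher genes 31 had the same sign and 12 were called in both, 36.4% of the 33 and 75% of the 16. Median differences were −0.745 without and −0.511 with JQ1 for the lower genes, and 0.479 and 0.34 for the higher ones, where the choice of genes used the values without JQ1. Nr4a2 differed by −2.42 and Fos by −1.68 with JQ1, Vegfa by 0.93 and Tfrc by 1.5. The difference of Vgf was −0.93 with JQ1 (adjusted p = 0.015). Of the 19 microglia genes tested, 8 were called lower and 0 higher with JQ1, with a median of −0.541. Without JQ1, 5 were lower and the median was −0.917. Cd68 and, outside that list, Adgre1 differed by −1.40 and −1.65 with JQ1. C1qb and Csf1r, not called without JQ1, differed by −2.31 and −1.39 with it and were called. Fcgr3a, Cx3cr1 and Itgam differed by −0.13, 0.08 and −0.05 with JQ1, not called. The change that JQ1 made to the difference was itself called for 0 genes by limma (379 at an unadjusted p below 0.05), with a smallest adjusted p of 0.312, so no gene was shown to depend on JQ1 in this difference.

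**Figure D5:**
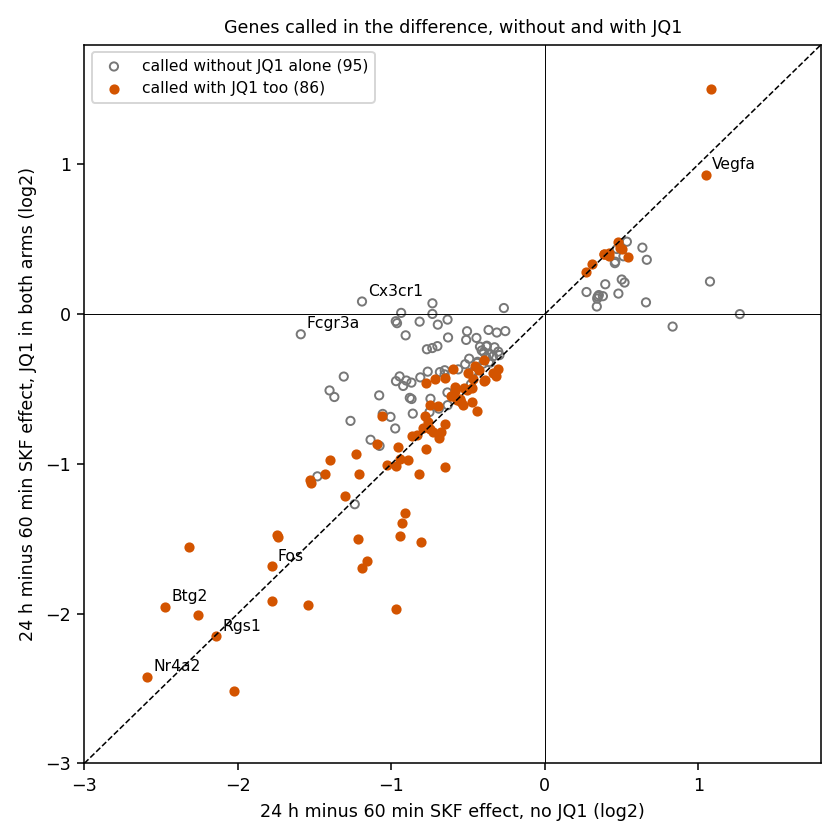
Each point is 1 of the 181 genes called in the difference, with the difference without JQ1 on the x axis and with JQ1 in both arms on the y axis, in log2 units, and equal values on the dashed line. The 86 filled points were called in both, and Nr4a2 and Btg2 lie at the lower left and Fcgr3a and Cx3cr1 near zero with JQ1.

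The classes differed in gene structure, given here as a description. Genes back at baseline spanned a median of 9.64 kb with 4 exons, against 19.6 kb and 8 exons over all genes tested, and 50.4% of them were under 10 kb against 33.4%. The rising late-only genes spanned 15.2 kb and the falling ones 21.6 kb. The median level in the DMSO 60 min libraries was 7.07 FPKM for genes back at baseline, 20.1 for rising and 3.99 for falling late-only genes, against 7.38 over all genes.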

How the data were processed

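RNA of 23 libraries was analysed, 8 of which enter the difference reported here. The values used are the FPKM that the authors deposited, 1 per annotated transcript, in StringTie tables per the file headers; the read coverage deposited beside them gave estimated reads for the alternative with voom and the aligned bases per library. Trim Galore, FastQC, STAR, StringTie and DESeq2 and the build Rnor_6.0 are named in the submitters' processing notes, with no role or version. No source at hand states whether counting used the strand, which leaves antisense or overlapping genes and near-identical copies uncertain.

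FPKM was summed by gene, and 13999 genes with at least 0.5 FPKM in at least 2 libraries and a transcript of at least 200 bases were kept. Each library was divided by its median-ratio size factor (0.947 to 1.07), and log2(FPKM + 0.5) was fitted with limma 3.58.1 (R 4.3.3, trend and robust variance, 11 residual degrees of freedom) with a mean per group. A log2 effect on this scale understates changes of weakly expressed genes. Where a gene was at a lower level at 24 h than at 60 min, its 24 h effect is shrunk more. For a gene raised at both times this can overstate a negative difference between the times. With a pseudocount of 0.1 the counts were 124 lower and 31 higher, with 100 genes back at baseline. Adjusted p is Benjamini-Hochberg over all genes of a comparison, and 10 comparisons were fitted. The steps were tested on simulated data. One library of SKF with iBD2 was not analysed here.

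The members of the comparison and the 26 gene lists were chosen with earlier results of these data known. Genes named were the 15 largest differences each way, up to 10 per class and 4 per list by smallest p, and a set of immediate early, striatal and feedback genes; Dusp4, Dusp5, Dusp10, Dusp14, Pkm, Tyrobp, Trem2, Aif1, Tmem119, Slc2a1, Hk2, Ddit4, Nell1, AABR07051069.1 and the 5 genes with neither single effect called were added after their values were seen. Alternatives were other scalings, pseudocounts and filters, a replicate block, voom, a fit of the 8 libraries, experiment 2 at 60 min, and each library left out. Promoters are from RefSeq (GRCr8), matched by symbol, and no coordinates were converted between builds.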

Additional observations from a re-analysis of the deposited data

Results flagged for a closer look

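The SKF effect differed between 24 h and 60 min by limma's test of the difference itself for 148 genes in the lower direction and 33 in the higher. In 5 of these genes neither single effect was called, while the difference between the times was. Cd14, a receptor for bacterial lipopolysaccharide on macrophages, differed by −1.06 (0.58 at 60 min, −0.48 at 24 h). Ccdc153 differed by −0.73. Lpcat1, a phospholipid acyltransferase gene, differed by 0.27, Nfyc, a subunit of the factor that binds CCAAT boxes, by 0.35, and Polr1d, a subunit of RNA polymerases I and III, by 0.38. In each the 60 min effect in experiment 1 and the 24 h effect had opposite signs. With the 60 min effect from experiment 2, the differences of Cd14, Ccdc153 and Polr1d were not called (adjusted p = 0.254, 0.281 and 0.403). The 60 min effect of Polr1d in experiment 2 was 0.013, the same sign as its 24 h effect of 0.20. The call of Polr1d was lost whichever library was left out, those of Ccdc153 and Nfyc without 7 of the 8, that of Lpcat1 without 6 and that of Cd14 without 5.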

How the results depend on the processing

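The counts of genes lower and higher were 36 and 5 with only the 8 libraries fitted and 237 and 60 with the 60 min effect from experiment 2, and with 1 library left out they ran from 91 to 140 and from 14 to 32. With only the 8 libraries, 31 genes were back at baseline, 4 sustained and 10 late-only, and 10 immediate early genes lower, 2 microglia genes lower and 2 hypoxia and glycolysis genes higher. With experiment 2, 97 genes were late-only, 2 reversed, 32 immediate early genes lower and 12 microglia genes lower. Microglia genes lower numbered 3 on FPKM as deposited, 3 with a pseudocount of 0.1, 3 with no filter and 8 with voom, which also gave 16 sustained genes. With 1 library left out, genes back at baseline ran from 75 to 123, sustained from 5 to 14, late-only from 24 to 73, reversed from 0 to 1, microglia genes lower from 2 to 11, and lower genes chosen in experiment 2 from 71 to 123. The cause of these shifts was not tested, save that leaving out libraries lowers the residual degrees of freedom.

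With the replicate number as a replicate block the counts were 167 lower and 32 higher, 167 of the 199 being among the 181 called without it, and microglia genes lower numbered 9. The numbers are not shown to pair libraries: correlations of deviations between the compared groups ran from −0.23 (DMSO with SKF at 24 h) to 0.278.

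Differences that were not called changed sign with experiment 2 at 60 min, to 0.150 for Vgf, −0.056 for Drd2, −0.106 for Penk, −0.573 for C3ar1, 0.168 for AABR07051069.1 and −0.018 for Ddit4. With 1 library left out they ran from −0.098 to 0.119 for Drd2, −0.114 to 0.370 for Penk, −0.053 to 0.176 for C3ar1, −0.453 to 0.078 for Tifab, −0.183 to 0.269 for Txnip and −0.059 to 0.184 for Ppp1r1b. Among the 64 called genes named, none changed sign under any alternative.

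The 2 libraries a group limit the precision of every value here.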
